A study of Mus musculus with 6 samples.

Results

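The genes described here are 10 transcription factor genes that are commonly used to place a T cell between an effector and a memory state: Tbx21, Eomes, Prdm1, Id2 and Zeb2 on the effector side, and Id3, Tcf7, Lef1, Bcl6 and Bach2 on the memory side. They were chosen by name, as a fixed list that sets no threshold on their values, though with earlier results of these data known, and make up 10 of the 29393 genes in the deposited count table. All 10 were found in the table and passed the filter on low counts. The cells were mouse double negative T cells (cDNT), which carry the T cell receptor but neither CD4 nor CD8 on their surface. Per the methods they were converted from CD4+CD25- T cells of CD45.1-positive C57BL/6 mice in culture with IL-2 on mature dendritic cells, and sorted afterwards. Per the labels the donors were adult and the tissue was spleen, whereas the methods name both spleens and lymph nodes as the source. The W/ IL-10 group (3 libraries) received IL-10 at 50 ng/ml for 24 h, and the W/O IL-10 group (3 libraries) received no IL-10. The methods add anti-CD3/CD28 antibodies during this culture, which the labels do not mention. The series' design text speaks of duplicates, whereas 3 libraries are listed for each group. No source used here says whether the 3 libraries of a group came from separate cultures or animals, so the p-values measure only the spread between these libraries, which may be technical.

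As background, T-bet (Tbx21) and Eomesodermin (Eomes) are related T-box factors that drive cytotoxic genes and interferon-gamma, with T-bet favoring terminal effector cells and Eomesodermin favoring longer-lived cells. Blimp-1 (Prdm1) and Bcl6 repress each other, and ZEB2 (Zeb2) acts with T-bet in terminal effector cells. Id2 and Id3 bind E proteins and keep them off DNA, Id2 mostly in effector cells and Id3 in memory precursors. TCF-1 (Tcf7) and LEF-1 (Lef1) are partners of beta-catenin that mark naive and memory T cells, and Bach2 is a repressor that holds back effector genes. IL-10 signals through STAT3, which binds a palindromic motif in DNA.

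Counts on genes summed to between 21619420 and 23967088 per library, and 3 counts, the smallest number taken as detectable, corresponded to 0.123 to 0.146 CPM, the unit of counts scaled to a common library size that is used throughout. That limit covers counting error only. Socs3, a feedback inhibitor that STAT3 induces, rose from 10.6 ± 0.906 to 37.4 ± 7.11 CPM (SD, n = 3 each) with IL-10 (log2 fold change 1.82, SE 0.15, edgeR adjusted p = 0.00102). All 10 T cell markers examined were detected, and their summed level was 3343 to 3687 CPM W/O IL-10 and 4288 to 4374 CPM W/ IL-10. Cd4 was low but detected in all 6 libraries, at 8 to 38 counts (mean 1.39 and 0.889 CPM). Cd8a was higher, with a mean of 107 CPM W/O IL-10 and 158 CPM W/ IL-10 (log2 fold change 0.56, edgeR adjusted p = 0.0369). Cd8b1 likewise had a mean of 38.1 CPM W/O IL-10 and 60.8 CPM W/ IL-10 (log2 fold change 0.67, edgeR adjusted p = 0.0306), so Cd8 RNA was present in cells sorted as lacking CD8. B cell markers (8 of 8 detected) summed to 149 to 246 CPM W/O IL-10 and 99.8 to 164 CPM W/ IL-10.

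By the sign of the log2 fold change, both directions were present on both sides of the effector and memory division. With IL-10, Tbx21 rose while Eomes and Id3 fell, at an adjusted p under 0.05. No memory gene was called higher, and Eomes, listed on the effector side, was called lower. Id3 was the only member that also passed the fold change of 1.5 used as the threshold, which 1.45% of the 14916 tested genes passed (0.778% higher and 0.677% lower W/ IL-10). At an adjusted p under 0.05 and any fold change, 3 of the 10 members were called, against 2.19% of tested genes (1.21% higher and 0.979% lower). The 3 libraries of one group lay entirely above those of the other for 6 members, 3 higher and 3 lower W/ IL-10, against 22.6% of tested genes. At an unadjusted p under 0.05, 4 members were higher and 4 lower, against 14.7% of tested genes in all, and 51.2% of tested genes had a log2 fold change above 0. The median log2 fold change was 0.22 over the 5 effector genes and -0.035 over the 5 memory genes, against 0.0063 over all tested genes. These are bulk values, in which fewer cells of a type and less RNA per cell cannot be told apart.

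**Figure D1:**
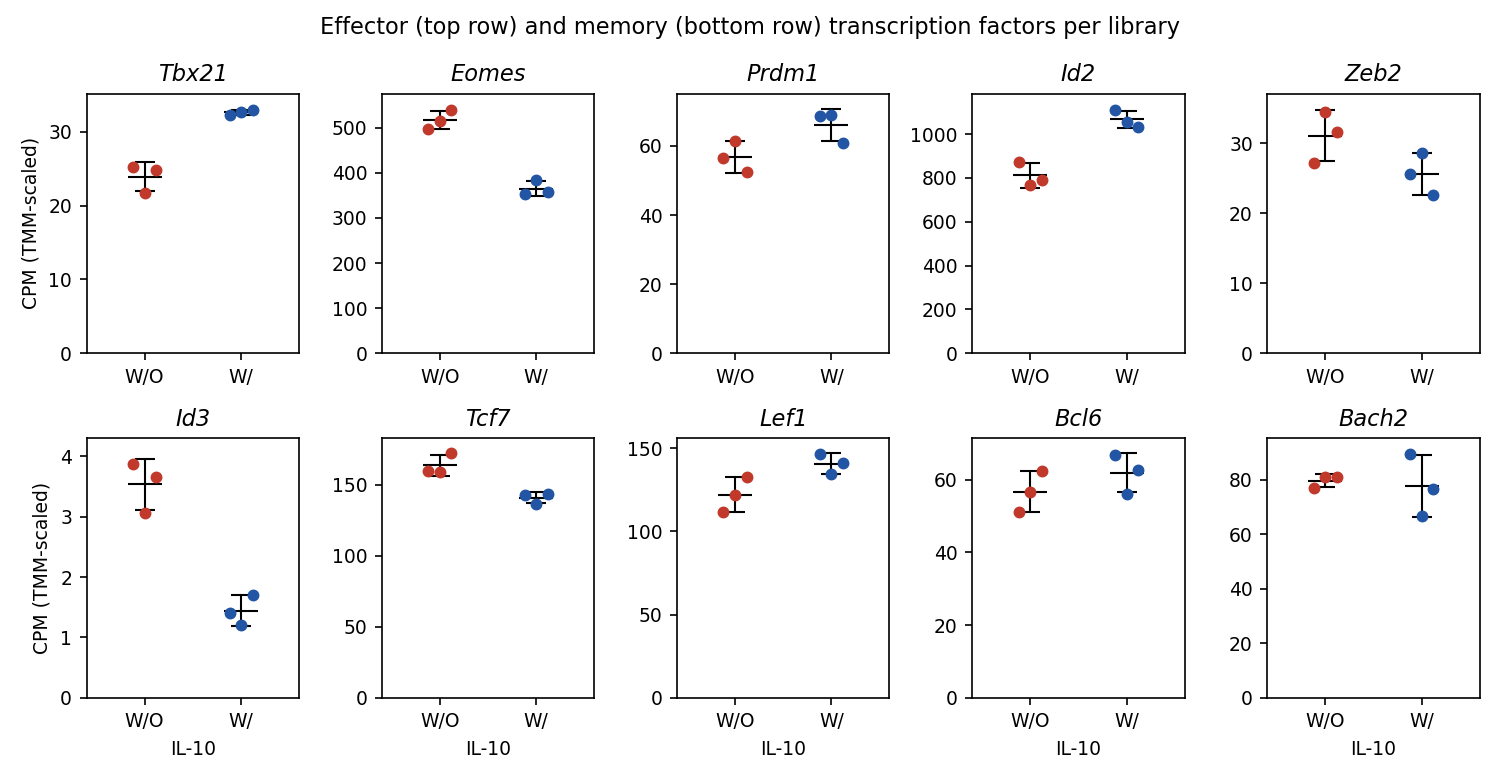
CPM of the 10 members in each library (points), with the mean and SD of the 3 libraries of each group (bars); every vertical axis starts at 0 and has its own scale. The groups are separate for Tbx21, Eomes, Id2, Id3, Tcf7 and Lef1 and overlap for Prdm1, Zeb2, Bcl6 and Bach2.

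The T-box pair moved in opposite directions. Eomes (ENSMUSG00000032446, chromosome 9, 118478212 to 118486132 of GRCm38, plus strand) was at 498.3, 515.0 and 539.1 CPM W/O IL-10 and at 352.8, 383.5 and 356.8 CPM W/ IL-10. Every W/ IL-10 library was below every W/O IL-10 library. The mean fell from 517 ± 20.5 to 364 ± 16.7 CPM (log2 fold change -0.51, SE 0.08, 95% interval -0.68 to -0.33, edgeR adjusted p = 0.0176), which is a fold of 0.704 and less than the 1.5-fold threshold. With 1 library left out, its log2 fold change stayed between -0.54 and -0.48, but the adjusted p stayed under 0.05 only without W/O IL-10 replicate 1 or W/ IL-10 replicate 2, and reached 0.123.

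Tbx21 (ENSMUSG00000001444, chromosome 11, 97098071 to 97115331, minus strand) was at 25.2, 21.6 and 24.9 CPM W/O IL-10 and at 32.3, 32.6 and 32.9 CPM W/ IL-10. The W/ IL-10 libraries were closely grouped and all higher. The mean rose from 23.9 ± 1.98 to 32.6 ± 0.325 CPM (log2 fold change 0.45, SE 0.09, 95% interval 0.24 to 0.66, edgeR adjusted p = 0.0467). This call was close to the limit: with upper-quartile scaling the adjusted p was 0.0610, with at least 10 counts required in every library it was 0.0507, and leaving out any library other than W/O IL-10 replicate 1 raised it above 0.05, up to 0.206. Measured within each library, the ratio of Eomes to Tbx21 per kilobase of exon was 11.82, 14.25 and 12.99 W/O IL-10 and 6.549, 7.036 and 6.493 W/ IL-10. Eomes thus remained the more abundant of the pair in every library, by a smaller margin W/ IL-10.

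The bases upstream of these genes are shown because STAT3 is the main factor downstream of IL-10. RefSeq promoter windows (GRCm38.p6, 250 bases before to 50 after a transcription start) were available for all 10 members, as 18 windows, and were searched for the STAT motif TTCNNNGAA, which reads the same on both strands. The motif occurred in 8.30% of all 32851 windows and in at least 1 window of 9.55% of 27025 genes. Among the members it occurred in windows of Bcl6, Bach2 and Zeb2. No match was found for Eomes, whose upstream 250 bases (chr9:118477939-118478188, plus strand) and those of Tbx21 (chr11:97115332-97115581, minus strand) are printed 5′ to 3′, in lower case throughout since neither holds the motif. A missing match says only that these letters are not in the window.
Eomes: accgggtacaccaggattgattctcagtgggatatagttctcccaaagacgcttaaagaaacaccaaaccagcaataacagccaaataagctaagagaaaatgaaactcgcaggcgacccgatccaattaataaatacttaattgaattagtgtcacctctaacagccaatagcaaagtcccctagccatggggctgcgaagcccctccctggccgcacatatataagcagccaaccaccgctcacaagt
Tbx21: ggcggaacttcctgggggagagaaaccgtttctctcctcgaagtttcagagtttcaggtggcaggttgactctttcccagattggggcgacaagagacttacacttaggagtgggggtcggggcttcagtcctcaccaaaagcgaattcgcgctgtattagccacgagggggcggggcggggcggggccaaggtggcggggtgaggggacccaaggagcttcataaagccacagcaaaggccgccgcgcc

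Id3 showed the largest relative change among the members. Id3 (ENSMUSG00000007872, chromosome 4, 136143497 to 136145755, plus strand) was at 3.88, 3.06 and 3.66 CPM W/O IL-10 and at 1.41, 1.20 and 1.71 CPM W/ IL-10, from 95, 74 and 85 counts against 29, 27 and 39. The groups were well separated, at a low level. The mean fell from 3.53 ± 0.425 to 1.44 ± 0.256 CPM (log2 fold change -1.30, SE 0.24, 95% interval -1.84 to -0.76, edgeR adjusted p = 0.0322). Its log2 fold change stayed between -1.44 and -1.18 with any library left out, but the adjusted p remained under 0.05 only without W/O IL-10 replicate 1 and was otherwise 0.0814 to 0.132 (0.0907 and 0.0814 without W/O IL-10 replicates 2 and 3, and 0.132, 0.112 and 0.121 without W/ IL-10 replicates 1, 2 and 3).

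Id2 (ENSMUSG00000020644, chromosome 12, 25093799 to 25097140, minus strand) was at 874.0, 768.4 and 792.5 CPM W/O IL-10 and at 1111, 1056 and 1034 CPM W/ IL-10. All W/ IL-10 libraries were higher. The log2 fold change was 0.40 (SE 0.09, 95% interval 0.20 to 0.59) with an edgeR adjusted p of 0.0571, so Id2 did not pass in the main test, while it did with DESeq2, with no filter on low counts, with limma-voom (0.0425) and after correction for GC content and length (0.0455), over a range of 0.000636 to 0.0781 in the 8 alternatives that used every library. With 1 library left out, the edgeR adjusted p of Id2 was 0.0119 without W/O IL-10 replicate 1 and otherwise 0.142 to 0.235. The ratio of Id2 to Id3 per kilobase was 165.4, 184.4 and 159.0 W/O IL-10 and 579.4, 647.3 and 444.6 W/ IL-10, with no overlap.

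Id1, the paralog of Id2 and Id3, was at 1.52 ± 0.541 CPM W/O IL-10 and 0.527 ± 0.139 CPM W/ IL-10 (log2 fold change -1.53, SE 0.39, edgeR adjusted p = 0.0976), from 8 to 52 counts per library. It passed at an adjusted p of 0.0458 with DESeq2 and 0.0160 with no filter on low counts, and with edgeR on fewer libraries the adjusted p was 0.0958 to 0.311. The E protein genes that the Id proteins act on did not pass the main test. Their log2 fold changes were -0.23 for Tcf3 (edgeR adjusted p = 0.283), -0.32 for Tcf4 (0.191) and -0.14 for Tcf12 (0.537). The adjusted p of Tcf4 was under 0.05 in some alternatives (0.0259 after correction for GC content and length).

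**Figure D2:**
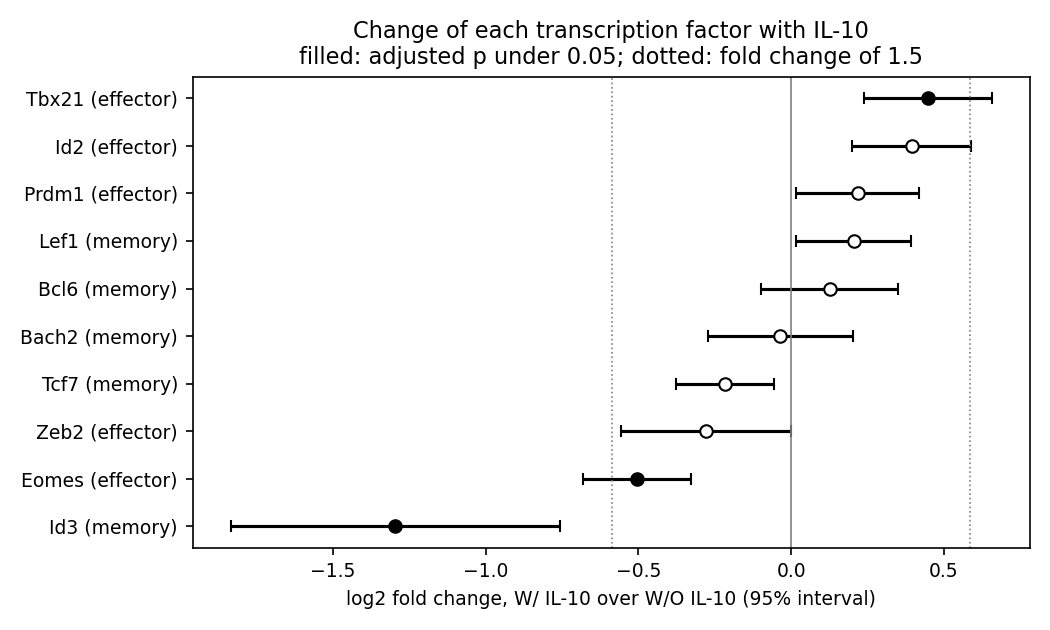
Log2 fold change of each member, W/ IL-10 over W/O IL-10, with its 95% interval from edgeR; filled points have an adjusted p under 0.05 and dotted lines mark a fold change of 1.5. Only Id3 lies past a dotted line with an adjusted p under 0.05, and the effector and memory genes are interleaved in the order.

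**Figure D3:**
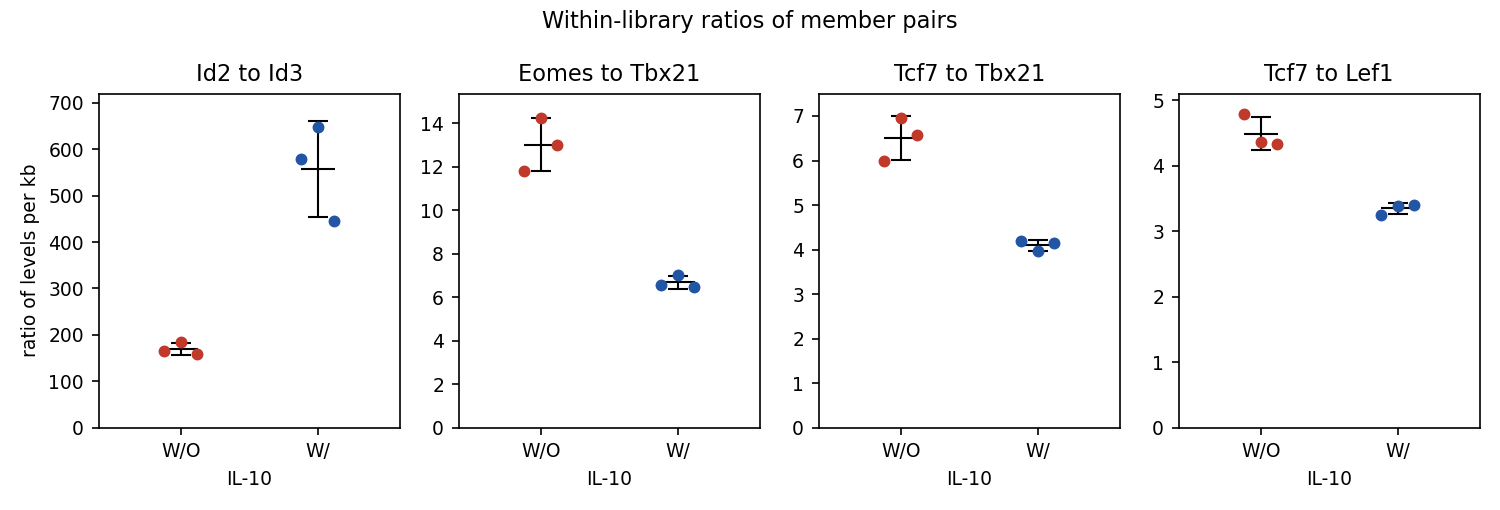
Ratios of levels per kilobase of exon within each library (points), with the mean and SD of each group (bars); each axis starts at 0. The groups do not overlap in any of the 4 ratios shown: Id2 to Id3 is higher W/ IL-10, and Eomes to Tbx21, Tcf7 to Tbx21 and Tcf7 to Lef1 are lower. This follows from the single genes, since both genes of each pair are already separate in opposite directions. Among the ratios not shown Prdm1 to Bcl6 overlaps, and Eomes to Tcf7, Prdm1 to Bach2 and Zeb2 to Zeb1 do not.

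TCF-1 and LEF-1 genes diverged in value, without passing the test. Tcf7 (ENSMUSG00000000782, chromosome 11, 52252371 to 52283014, minus strand) was at 159.6, 158.9 and 172.2 CPM W/O IL-10 and at 142.5, 136.3 and 143.7 CPM W/ IL-10 (log2 fold change -0.22, SE 0.07, 95% interval -0.38 to -0.06, edgeR adjusted p = 0.188). Lef1 (ENSMUSG00000027985, chromosome 3, 131110471 to 131224356, plus strand) was at 111.7, 122.0 and 132.9 CPM W/O IL-10 and at 146.7, 134.5 and 141.3 CPM W/ IL-10 (log2 fold change 0.20, SE 0.08, 95% interval 0.02 to 0.39, edgeR adjusted p = 0.295). The libraries did not overlap for either gene, with Tcf7 lower and Lef1 higher W/ IL-10. For Lef1, 13.7% of exon bases lie under Gm43352 on the opposite strand, whose reads cannot be told apart from those of Lef1 unless strand was used in counting. The ratio of Tcf7 to Lef1 per kilobase was 4.786, 4.359 and 4.338 W/O IL-10 and 3.251, 3.393 and 3.405 W/ IL-10, and that of Tcf7 to Tbx21 was 5.992, 6.961 and 6.569 against 4.185, 3.958 and 4.140.

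The opposing repressors Prdm1 and Bcl6 did not pass the test. Prdm1 (ENSMUSG00000038151, chromosome 10, 44437177 to 44528501, minus strand) was at 56.5, 61.5 and 52.3 CPM W/O IL-10 and at 68.6, 68.8 and 60.7 CPM W/ IL-10 (log2 fold change 0.22, 95% interval 0.02 to 0.42, edgeR adjusted p = 0.294). Bcl6 (ENSMUSG00000022508, chromosome 16, 23965052 to 23988852, minus strand) was at 51.0, 56.6 and 62.2 CPM W/O IL-10 and at 66.7, 56.1 and 62.7 CPM W/ IL-10 (log2 fold change 0.13, 95% interval -0.10 to 0.35, edgeR adjusted p = 0.603). The groups overlapped for both genes, and the ratio of Prdm1 to Bcl6 overlapped too (mean 1.22 without and 1.29 with IL-10).

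Bcl6 is the member whose windows held most copies of the STAT motif. The window at its inner start, inside the gene, held 3 matches, at -168, -122 and -88 from the start, and the window at its outer start held 1, at -118. Their upstream bases are printed 5′ to 3′ with the motif in capitals (inner start chr16:23981284-23981533 and outer start chr16:23988853-23989102, both minus strand).
Bcl6 inner start: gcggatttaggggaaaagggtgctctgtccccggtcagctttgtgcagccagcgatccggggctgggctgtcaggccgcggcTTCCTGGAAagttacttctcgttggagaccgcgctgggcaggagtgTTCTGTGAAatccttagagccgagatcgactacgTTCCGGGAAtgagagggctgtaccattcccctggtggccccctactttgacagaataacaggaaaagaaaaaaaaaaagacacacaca
Bcl6 outer start: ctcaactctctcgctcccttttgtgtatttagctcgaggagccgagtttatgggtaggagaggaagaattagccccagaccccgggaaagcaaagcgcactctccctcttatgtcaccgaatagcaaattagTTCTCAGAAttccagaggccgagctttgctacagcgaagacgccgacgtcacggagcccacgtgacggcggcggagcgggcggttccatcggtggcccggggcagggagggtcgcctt

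Bach2 (ENSMUSG00000040270, chromosome 4, 32238804 to 32586108, plus strand) was at 76.8, 80.9 and 81.1 CPM W/O IL-10 and at 89.5, 66.7 and 76.7 CPM W/ IL-10. The W/ IL-10 libraries lay on both sides of the W/O IL-10 range (log2 fold change -0.035, 95% interval -0.27 to 0.20, edgeR adjusted p = 0.911), and the sign turned in 2 alternatives. Zeb2 (ENSMUSG00000026872, chromosome 2, 44983632 to 45117395, minus strand) was at 27.2, 34.4 and 31.7 CPM W/O IL-10 and at 25.7, 28.6 and 22.6 CPM W/ IL-10 (log2 fold change -0.28, SE 0.12, edgeR adjusted p = 0.338). Its groups overlapped, and its exons share bases with Zeb2os on the opposite strand. Zeb1, the paralog of Zeb2, had a log2 fold change of 0.30 (edgeR adjusted p = 0.225), and the ratio of Zeb2 to Zeb1 per kilobase had a mean of 0.387 W/O IL-10 against 0.258 W/ IL-10, without overlap. Bach1, the paralog of Bach2, had a log2 fold change of 0.13 (edgeR adjusted p = 0.683). Bcl6 and Bach2 are also expressed in B cells, whose 8 markers all had a lower mean W/ IL-10 with overlapping summed levels (149 to 246 and 99.8 to 164 CPM). Only Blk among them passed (log2 fold change -0.88, edgeR adjusted p = 0.0373), and the part of B cell RNA in the Bcl6 and Bach2 values was not tested.

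Compared per kilobase of exon, the members spanned a wide range of levels. Over the 6 libraries Id2 was at 385 CPM per kilobase, above 99.3% of 12294 tested protein-coding genes, Eomes at 106 (above 97.3%) and Tcf7 at 58.0 (above 94.0%). These 3 differed from each other and from the next gene in every library. Lef1 (15.0), Tbx21 (11.4), Prdm1 (11.0), Bcl6 (8.84) and Bach2 (7.91) followed. The range of each over the 6 libraries overlapped with that of the next in this order. Compared within each library, Lef1 was nonetheless above Tbx21 and Prdm1 above Bcl6 every time, the latter narrowly in W/O IL-10 replicate 3 (9.38 against 9.29). Zeb2 (1.42) and Id3 (1.39) were lowest, above 22.2% and 21.9% of genes, and their ranges overlapped. By this length their order turned between the groups. Id3 had a mean of 1.97 and Zeb2 of 1.56 CPM per kilobase W/O IL-10, with overlapping libraries. Id3 was below Zeb2 in every library W/ IL-10 (0.804 and 1.29). The means of Prdm1 and Tbx21 also changed places, at 10.2 and 9.61 W/O IL-10 and at 11.8 and 13.1 W/ IL-10. That change rests on W/O IL-10 replicate 2 (Prdm1 11.03, Tbx21 8.70), the only library in which Prdm1 was above Tbx21. With the length of the longest transcript in place of all exons, Lef1 was at 36.0 and Bcl6 at 15.1 CPM per kilobase, which placed Bcl6 above Prdm1 and Tbx21. By that length Zeb2 was at 3.11 and Id3 at 1.95 over the 6 libraries, and their turn in order rests on the length of all exons.

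**Figure D4:**
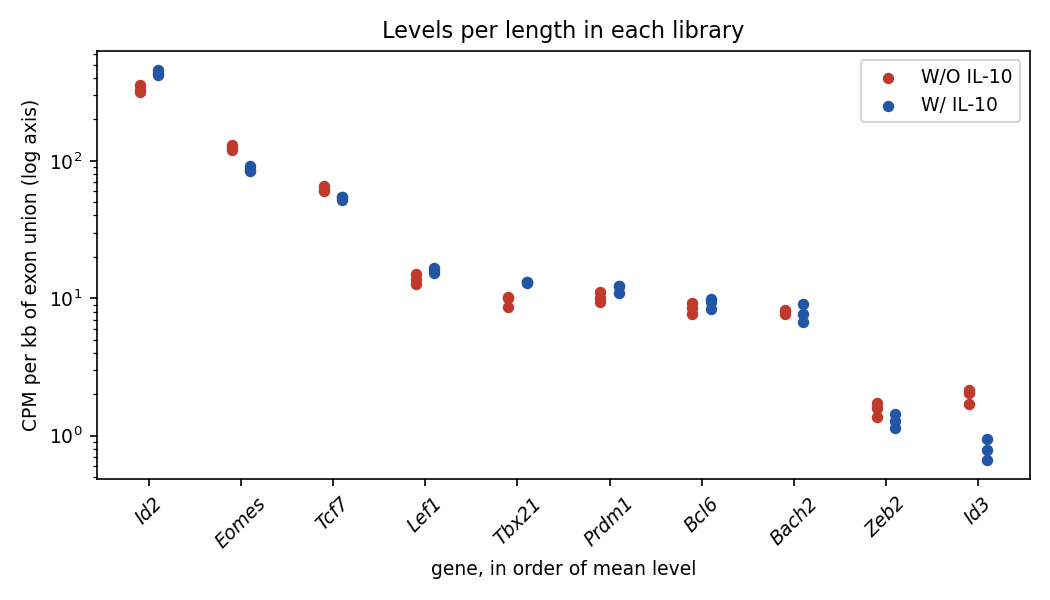
Level of each member in each library, in CPM per kilobase of the union of its exons, on a log axis, in order of the mean over 6 libraries. Id2, Eomes and Tcf7 stand above the other 7 members, and Zeb2 and Id3 lie lowest.

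Genes that effector T cells use were read from the same fit. Of 22 effector-linked genes 21 were tested, and edgeR called 8 higher and 0 lower at an adjusted p under 0.05 (median log2 fold change 0.42), against 1.21% and 0.979% of all tested genes. At an unadjusted p under 0.05, 12 were higher and 1 lower, against 14.7% of all tested genes in both directions together. At an adjusted p under 0.05 DESeq2 called 11 higher and 0 lower, and 696 of all 14916 tested genes. The list, like those that follow, was drawn up with earlier results of these data known. Gzmb, a granzyme of cytotoxic granules, rose from 2305 ± 63.3 to 5190 ± 132 CPM (log2 fold change 1.17, edgeR adjusted p = 0.000527). Gzma, another granzyme, had a log2 fold change of 1.06 (edgeR adjusted p = 0.0116), Prf1, the pore-forming perforin, 0.50 (0.0291) and Nkg7, a granule membrane protein, 0.90 (0.00467). The chemokine genes Ccl3 and Ccl4 rose by log2 1.28 (edgeR adjusted p = 0.000544) and 1.34 (0.0125), Ifng by 1.19 (0.00383) and Il18rap, a subunit of the IL-18 receptor, by 0.61 (0.0434). The lowest value was that of Klrg1, a marker of terminal effector cells (log2 fold change -0.37, edgeR adjusted p = 0.287, groups overlapping), which was called lower with no filter on low counts (adjusted p = 0.00514) and with the GC and length correction together with the replicate block (0.0138). Gzmb, Ccl3, Nkg7 and Ifng kept an adjusted p under 0.05 with each library left out in turn. The count of 8 became 5 without W/O IL-10 replicate 2, W/ IL-10 replicate 1 or W/ IL-10 replicate 3. Calls over all tested genes were then 75, 57 and 35. Without W/O IL-10 replicate 1 the count became 12, with 525 of 14646 tested genes called. Summed NK cell markers, whose cells share these genes, were at 56.7 to 61.9 CPM W/O IL-10 and 49.9 to 62.4 CPM W/ IL-10. CD8 T cells use these genes too, and the summed level of Cd4, Cd8a and Cd8b1 was 130 to 165 CPM W/O IL-10 and higher in every library W/ IL-10, at 199 to 233 CPM. Its part in the result was not tested.

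Of 21 memory-linked genes examined 20 were tested (median log2 fold change -0.14). At an adjusted p under 0.05 edgeR called 1 lower and 0 higher, against 0.979% and 1.21% of all tested genes. At an unadjusted p under 0.05, 5 were higher and 8 lower, against 14.7% of all tested genes in both directions together. The counts moved with the processing: DESeq2 called 4 lower and 0 higher, and no filter on low counts gave 8 lower and 1 higher. The GC and length correction with the replicate block gave 6 lower and 2 higher. Calls over all tested genes moved too, from 327 to 696 with DESeq2, 1239 of 29393 with no filter and 835 with that correction and block. Ccr7, a chemokine receptor for entry into lymph nodes, fell from 100 ± 14.6 to 64.8 ± 6.50 CPM (log2 fold change -0.63, edgeR adjusted p = 0.0364). This call did not hold with every library left out: the adjusted p stayed under 0.05 only without W/O IL-10 replicate 1 and reached 0.195, and the count of 1 lower became 5 without that library and 0 without any other. The extremes of the list were Il6ra (log2 fold change 0.95, edgeR adjusted p = 0.338) and Ly6c1 (-0.97, 0.540), both with means under 1 CPM. Among 22 paralogs and partners of the members, edgeR called 0 in either direction, against 2.19% of all tested genes. DESeq2 called 1 lower, against 696 of all 14916 tested genes in both directions together. At an unadjusted p under 0.05, 1 was higher and 7 lower, against the same 14.7% of all tested genes. The highest value in that list was that of Tcf7l2, a paralog of Tcf7 (log2 fold change 1.13, edgeR adjusted p = 0.392), with means under 1 CPM.

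**Figure D5:**
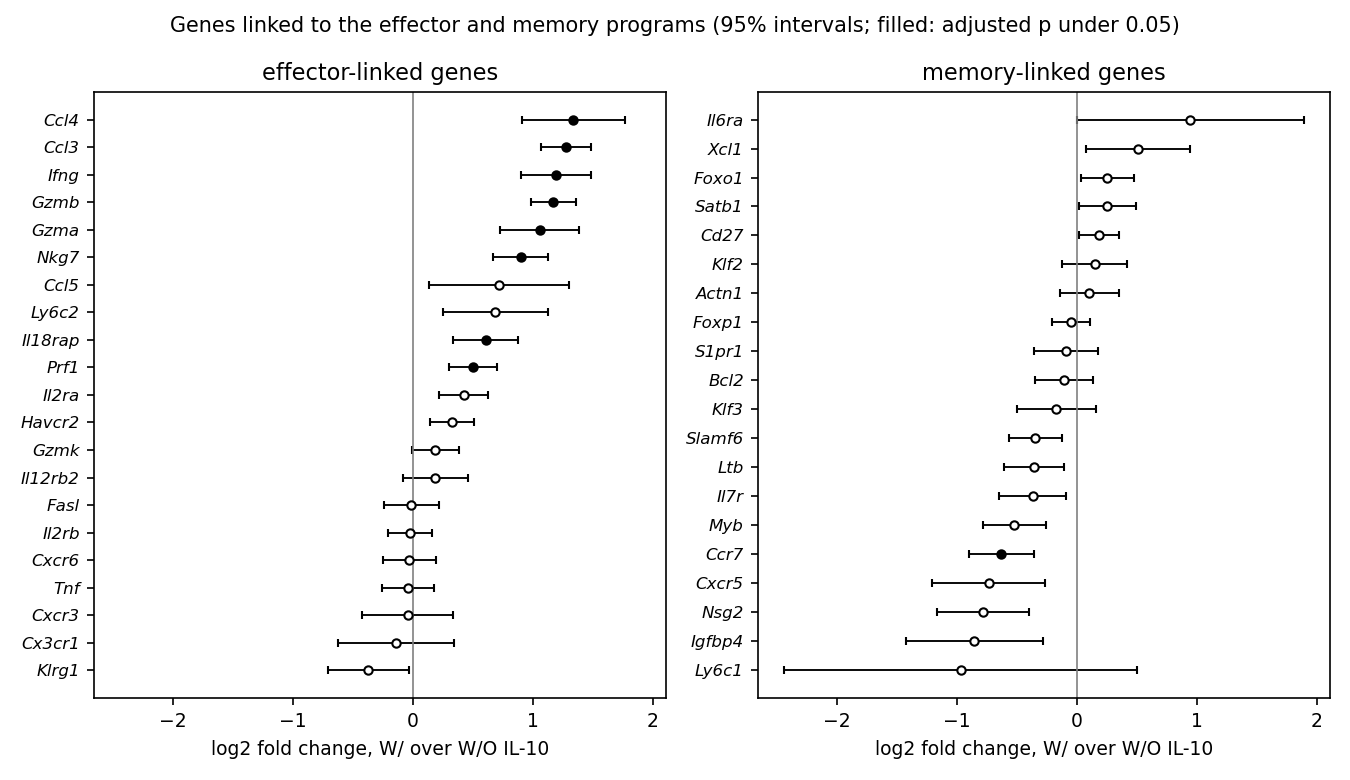
Log2 fold change, W/ IL-10 over W/O IL-10, with 95% intervals from edgeR, for 21 effector-linked genes (left) and 20 memory-linked genes (right); filled points have an adjusted p under 0.05. The 8 filled effector-linked genes are all higher W/ IL-10, and the filled memory-linked gene, Ccr7, is lower.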

How the data were processed

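RNA sequencing of 6 mouse cDNT libraries (3 W/ IL-10, 3 W/O IL-10) was analysed from whole-number counts per gene that the authors deposited without normalization. The submitters' processing notes name HISAT2, HTSeq and GRCm38, whereas the paper's methods name TopHat and Cufflinks. Versions and the use of strand are not given in the sources used here. The quasi-likelihood test of edgeR 4.0.16 (R 4.3.3) was fitted with TMM scaling and no block to 14916 genes, those reaching 10 counts in 3 libraries or more, with Benjamini-Hochberg adjustment over all of them. The threshold was a fold change of at least 1.5 and an adjusted p under 0.05. For a single gene, the side of the limit under an alternative was judged by the adjusted p alone, a choice made after the values were seen. An exact permutation test of 3 against 3 libraries cannot give a p below 0.1 and was not used.

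The alternatives were DESeq2 1.42.0, upper-quartile scaling, limma-voom (limma 3.58.1), no filter, a minimum of 10 counts in all libraries, the replicate number as a block, a correction for GC content and length (splines with 5 degrees of freedom) with and without that block, and each library left out in turn. The steps were tested on simulated data with 200 changed genes, called at an adjusted p under 0.05. At a 1.5-fold change edgeR recovered 37% of them with 14% false among its calls, and DESeq2 47% with 21.7%. At a 2-fold change edgeR recovered 65.5% with 6.43% false, and DESeq2 70.5% with 19%. Many changes of 1.5-fold are thus missed, and false calls exceeded the share that this limit aims at. Symbols and positions come from GENCODE M21 (GRCm38), in which 29332 of 29393 identifiers were found, and promoter windows from RefSeq. Genes named were the 10 members, the genes of 3 further lists (paralogs and partners, effector-linked, memory-linked) with an adjusted p under 0.05, the largest and smallest change in each list, Tcf3, Tcf4, Tcf12, Id1, Zeb1, Bach1 and Socs3. Cd8a, Cd8b1, Cd4 and Blk, which are markers, were named after their values were seen. A memory-linked gene is not reported here and was left out of the counts of its list. The members and lists were chosen with earlier results of these data known. Annotation and plots used Python 3.11.15, pandas 2.3.3 and matplotlib 3.10.9.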

Additional observations from a re-analysis of the deposited data

How the results depend on the processing

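The number of genes past the threshold was 217 and became 327 at an adjusted p under 0.05 with any fold change, 359 with DESeq2, 639 with no filter on low counts, and 331 with the GC and length correction together with the replicate block. With 1 library left out it ranged from 35 to 254. The number of members past the threshold was 1 (Id3) and became 3 at any fold change (Tbx21, Eomes and Id3), and ranged from 0 to 1 with 1 library left out, being 0 without any library other than W/O IL-10 replicate 1. The sign of Bach2 turned with the GC and length correction (log2 fold change 0.0038) and without W/ IL-10 replicate 2, and ranged from -0.15 to 0.0623 with 1 library left out. The other 9 members kept their direction in all 14 alternatives. The adjusted p of Id3 and Eomes stayed under 0.05 in all 8 alternatives that used every library, and that of Tbx21 in 5 of 8. Over all tested genes, libraries with the same replicate number correlated by 0.0524, -0.0573 and 0.114 in their deviations from the group means. The mean correlation between different numbers was -0.0175. The numbers were not taken as pairs, but correlations over mostly unchanged genes cannot show that the libraries are unpaired. With the replicate block the SE was smaller for some genes (Gzma 0.0763 against 0.146, Ccl4 0.073 against 0.189). It was not smaller for others (Tbx21 0.0965 against 0.0924). The fit with the replicate block gave 196 genes past the threshold, 167 of them shared with the fit without it, and 1 member, and the adjusted p of Tbx21 was then 0.0747. The causes of these shifts were not tested. At these depths a value of 3 counts, or 0.123 to 0.146 CPM, limits what can be seen of genes as low as Id1.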

Other observations

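Cd5, Ncr1 and Itgax from the marker lists also changed at an adjusted p under 0.05, and were picked after their values were seen. Cd5, an inhibitory receptor of T cells, fell by 0.47 on the log2 scale (62.4 to 44.9 CPM, edgeR adjusted p = 0.0467). Ncr1, an activating receptor of NK cells, fell by 1.15 (6.53 to 2.95 CPM, edgeR adjusted p = 0.0460). Itgax, which encodes the integrin CD11c of dendritic cells and some activated T cells, rose by 1.09 (20.4 to 43.2 CPM, edgeR adjusted p = 0.00383). The summed level of the 7 dendritic cell markers in the table overlapped between the groups, at 65.6 to 107 CPM W/O IL-10 and 80.9 to 103 CPM W/ IL-10. Among them Clec9a, Siglech and Flt3 had at most 7 counts in a library, whereas H2-Ab1 (mean 55.3 and 37.1 CPM), Zbtb46 (6.70 and 4.94 CPM) and Xcr1 (3.89 and 5.89 CPM) were detected in all libraries.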
